A study of Homo sapiens with 6 samples.

Results

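The 9 genes described here are 3 trefoil factors (TFF1, TFF2 and TFF3) and 6 genes of secretory epithelium (AGR2, AGR3, SPDEF, CREB3L4, REG4 and FCGBP), out of 58735 genes counted in AsPC-1 cells. AsPC-1 is an established human pancreatic cancer cell line. Its cells were infected either with an empty lentivirus (Vector, 3 libraries) or with a lentivirus carrying MMP28, a secreted matrix metalloproteinase (OE-MMP28, 3 libraries), and the study's methods describe puromycin selection to obtain stable cells. Both groups carried a virus, both come from 1 cell line, and the number of separate infections behind the 3 libraries of a group is not given in the sources used here. RNA sequencing was used to ask which transcripts differ between the groups. The 9 genes were chosen by name with earlier values of this same contrast known, so their differences between the groups are given as a description. Nothing in the labels says that the 3 libraries of a group came from separate cultures, and p-values then measure only the spread between these samples, which may be technical.

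Trefoil factors are small secreted peptides held together by disulfide bonds and released with mucins by cells that line the stomach, intestine and ducts, where they are known for helping the epithelium to repair itself. AGR2 and its neighbour AGR3 are isomerases of the endoplasmic reticulum that help such proteins to fold. SPDEF is a transcription factor that drives goblet cell maturation, CREB3L4 is a membrane-bound transcription factor of the secretory pathway, REG4 is a secreted lectin-like protein of enteroendocrine and goblet cells, and FCGBP is a large protein of the mucus layer. In pancreatic cancer, TFF1, TFF2, TFF3, AGR2 and REG4 are commonly counted among the genes of the classical, better differentiated type.

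No stretch of 50 bases of any trefoil transcript was found in transcripts of genes other than the trefoil and secretory genes named above. Stretches shared among the trefoil and secretory genes themselves were not counted. No exon of another gene overlapped the exons of the trefoil factors.

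Total counts ranged from 13633249 to 16691458 per library. A count of 0 then allows up to 3 counts, or 0.180 to 0.220 CPM (counts scaled to the library total), with the limit covering counting error only. MMP28, the gene carried by the virus, had 5.17, 9.11 and 8.43 FPKM in the Vector libraries (fragments scaled to gene length and library total) and 13.1, 13.9 and 15.1 FPKM in the OE-MMP28 libraries, a log2 fold change of 0.90 (SE 0.19, adjusted p = 0.00226). Of the duct markers, EPCAM, KRT8, KRT18 and KRT19 were high in both groups, with EPCAM at 313 ± 12.2 FPKM in Vector and 288 ± 35.6 in OE-MMP28 (SD, n = 3), while KRT7 had only 1.14 ± 0.503 and 1.81 ± 0.559 FPKM. Of these 6 markers 1 was lower, the cadherin gene CDH1 (20.3 ± 2.61 to 13.4 ± 2.15 FPKM, log2 fold change -0.59, adjusted p = 0.0113, but -0.21 and adjusted p = 0.421 relative to the median of the genes within 5 Mb), and 1 was higher, KRT19 (624 ± 34.1 to 1012 ± 140 FPKM, 0.71, adjusted p = 0.00175). The shares over all genes tested were 11.6% lower and 11.7% higher. Acinar markers had at most 4 counts in a library, islet markers 0 and leukocyte markers at most 9, and of the fibroblast markers only LUM exceeded 11 counts, at 37.3 ± 3.52 and 45.3 ± 10.1 FPKM. Of the endothelial markers, CDH5 had at most 1 count and VWF 7 to 19, while PECAM1 rose from 0, 4 and 4 counts in Vector to 13, 21 and 30 in OE-MMP28 (log2 fold change 2.79, adjusted p = 0.00361). PECAM1 reached the minimum count of 10 for testing in OE-MMP28 libraries only, so nothing is read from its fold change. The part of these marker differences in the results was not tested. Genes of goblet cells differed in level. MUC2 had 0 to 13 counts and CLCA1 and the transcription factor ATOH1 had 0 in all 6 libraries, but SPINK4 had 21 to 70 and ZG16B 125 to 187. With these genes divided, no goblet cell programme is claimed, and the 9 genes are called trefoil and secretory genes here.

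In Vector cells AGR2 had the highest level per length among the 9 genes and AGR3 the lowest. The mean FPKM in the Vector group was 20.7 ± 8.61 for AGR2, 12.6 ± 5.05 for TFF2, 9.79 ± 6.77 for REG4, 8.36 ± 4.71 for TFF3, 5.97 ± 1.44 for CREB3L4, 5.07 ± 0.759 for FCGBP, 2.31 ± 1.49 for TFF1, 0.208 ± 0.159 for SPDEF and 0.0620 ± 0.0639 for AGR3 (SD, n = 3). Neighbours in this order overlapped in their library values from AGR2 down to FCGBP, and so did SPDEF and AGR3, whereas TFF1 lay below every FCGBP value and above every SPDEF value. In OE-MMP28 cells the order was AGR2 (7.85 ± 1.87), REG4 (6.26 ± 0.548), TFF2 (5.75 ± 0.728), CREB3L4 (5.69 ± 0.245), FCGBP (5.40 ± 0.939), TFF1 (0.889 ± 0.671), SPDEF (0.0879 ± 0.125), TFF3 (0.0700 ± 0.0607) and AGR3 (0 in all 3 libraries). TFF3 therefore moved from among the better expressed of the 9 genes to the level of SPDEF, where its library values overlapped those of SPDEF.

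**Figure D1:**
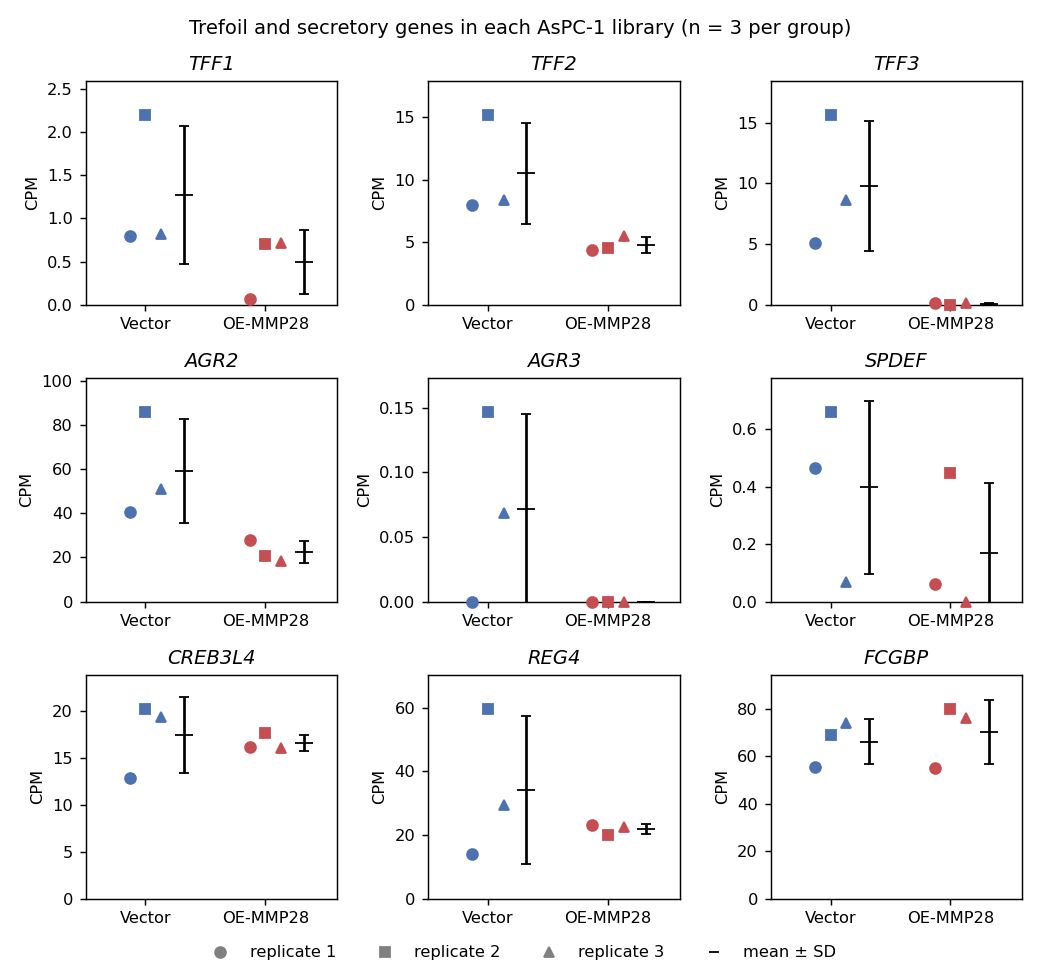
CPM, the count scaled to the library total (vertical axes, each from 0), of the 9 genes in each Vector library (blue) and OE-MMP28 library (red), with the replicate number as the marker shape and the group mean ± SD in black (n = 3, bars cut at 0). TFF3 runs from 5.07 to 15.6 CPM in Vector and from 0 to 0.124 CPM in OE-MMP28, and Vector replicate 2 is the highest of all 6 libraries for TFF1, TFF2, TFF3, AGR2, AGR3, SPDEF, CREB3L4 and REG4. For AGR3 and SPDEF this rests on counts of 2 and 9. The share of all genes that are highest there among the 6 libraries was not counted.

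TFF3 showed the widest difference of the trefoil factors. Its counts were 76, 213 and 126 in Vector replicates 1 to 3 (4.26, 13.5 and 7.32 FPKM) and 2, 0 and 2 in the OE-MMP28 replicates (0.108, 0 and 0.102 FPKM). All 3 OE-MMP28 libraries were under the limit that a count of 0 allows, and the groups lay far apart. Summed over libraries and scaled to depth, the Vector level was 115 times the OE-MMP28 level, with a counting interval of 44.4 to 423 (95%). The fitted log2 fold change was -6.74 (SE 0.58), which depends on the small count added in the fit and placed TFF3 at rank 4 from the lowest of 15319 genes tested. TFF3 passed the filter's minimum count of 10 through the Vector libraries only, so nothing is read from this rank.

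TFF2, which carries a pair of trefoil domains, had 9.46, 18.5 and 9.97 FPKM in Vector and 5.33, 5.32 and 6.59 FPKM in OE-MMP28 (counts of 120, 207 and 122 against 70, 70 and 92). Every OE-MMP28 library lay below every Vector library, and the OE-MMP28 libraries were close to each other. The log2 fold change was -1.12 (SE 0.26), a level 2.17-fold lower in OE-MMP28. The level of TFF2 in OE-MMP28 thus remained well above the limit of detection, unlike that of TFF3.

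TFF1, the breast and stomach trefoil peptide, had few reads in every library. Its counts were 12, 30 and 12 in Vector and 1, 11 and 12 in OE-MMP28. Scaled to depth these were 0.801, 2.20 and 0.823 CPM against 0.0620, 0.707 and 0.719 CPM, so the groups did not overlap, but 2 libraries of each group lay within a narrow band. Vector replicate 2 and OE-MMP28 replicate 1 set most of the log2 fold change of -1.32 (SE 0.60), which did not pass the threshold and was -0.68 without Vector replicate 2.

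AGR2 and AGR3 lie next to each other on chromosome 7 (chr7:16791811-16833433 and chr7:16859405-16881987, minus strand, GRCh38). AGR2 had 14.0, 30.4 and 17.7 FPKM in Vector and 9.98, 7.12 and 6.46 FPKM in OE-MMP28. All OE-MMP28 libraries lay below all Vector libraries, and the log2 fold change was -1.39 (SE 0.23), or 2.62-fold lower. AGR3 had counts of 0, 2 and 1 in Vector and 0 in each OE-MMP28 library, which is at or under the limit of detection in both groups, so no fold change is given.

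The region around the start of transcription is shown for AGR2 and AGR3, as neighbours whose levels lay far apart, and for REG4, which like AGR2 was highest in Vector replicate 2. Each sequence runs 5′ to 3′ on the minus strand from 250 bases before the RefSeq start to 50 bases after it (build GRCh38.p14), at chr7:16804950-16805249 for AGR2, chr7:16881934-16882233 for AGR3 and chr1:119811411-119811710 for REG4. The AGR2 window lies inside the counted gene (chr7:16791811-16833433), which has 7 annotated transcripts. Its counts can therefore include transcripts that start before the window shown. Capitals mark the letters of a TATA box or of a GATA motif, which are spelled out after the sequences.
AGR2: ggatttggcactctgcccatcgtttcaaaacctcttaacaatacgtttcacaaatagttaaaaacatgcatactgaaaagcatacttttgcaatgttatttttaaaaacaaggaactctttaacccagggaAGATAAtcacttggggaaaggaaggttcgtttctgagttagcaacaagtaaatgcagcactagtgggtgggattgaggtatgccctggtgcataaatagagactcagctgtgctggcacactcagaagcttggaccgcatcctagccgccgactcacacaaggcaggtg
AGR3: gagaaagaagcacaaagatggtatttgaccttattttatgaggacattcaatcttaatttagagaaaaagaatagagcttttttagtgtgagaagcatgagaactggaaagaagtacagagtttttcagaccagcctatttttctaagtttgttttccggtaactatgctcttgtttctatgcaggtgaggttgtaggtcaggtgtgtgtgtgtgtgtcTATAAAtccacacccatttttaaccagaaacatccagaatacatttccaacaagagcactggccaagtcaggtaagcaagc
REG4: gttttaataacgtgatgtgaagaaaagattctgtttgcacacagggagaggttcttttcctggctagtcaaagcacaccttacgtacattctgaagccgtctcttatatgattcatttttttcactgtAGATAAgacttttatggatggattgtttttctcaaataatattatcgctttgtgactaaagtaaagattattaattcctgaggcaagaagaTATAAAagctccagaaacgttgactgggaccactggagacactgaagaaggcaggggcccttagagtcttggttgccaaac

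The sequence table held this region for 6 of the 9 genes (AGR2, AGR3, SPDEF, CREB3L4, REG4 and FCGBP). TATAAA was found 31 bases before the start in AGR3 and in REG4, and in 11.5% of 35116 promoters of the same length. AGATAA was found 119 bases before the start in AGR2 and 122 bases before it in REG4, and in 10.3% of promoters. CCAAT was found in SPDEF and FCGBP and in 34.6% of promoters. The letters TGTTTAC, a forkhead motif, were in none of the 6 and in 3.42% of all promoters. The letters TGACG, the core of the site of CREB factors, were in none of the 6 and in 24.6% of all promoters. Both strands were searched, and a match describes letters in this window only.

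Of the transcription factors among the 9 genes, SPDEF had counts of 7, 9 and 1 in Vector and 1, 7 and 0 in OE-MMP28. The groups overlapped, the gene was under the minimum count for testing, and at this depth a difference was not detectable, with a ratio of Vector to OE-MMP28 of 2.35 (counting interval 0.961 to 6.29). CREB3L4 had 4.32, 7.01 and 6.59 FPKM in Vector and 5.66, 5.95 and 5.46 FPKM in OE-MMP28. The OE-MMP28 values all lay inside the Vector range, and the log2 fold change was -0.06 (SE 0.20). JTB and SLC39A1, on the other strand, cover 3.27% and 9.64% of the exon length of CREB3L4, and whether reads were counted by strand is not given in the sources used here.

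REG4 differed more among the Vector libraries than between the groups. It had 3.89, 17.2 and 8.29 FPKM in Vector and 6.72, 5.65 and 6.41 FPKM in OE-MMP28. The OE-MMP28 libraries lay close together between Vector replicates 1 and 3, and the log2 fold change was -0.63 (SE 0.31), not past the threshold. Without Vector replicate 2 it was 0.05, and without Vector replicate 1 it was -1.01 and past the threshold.

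FCGBP, the Fc fragment of IgG binding protein of mucus, had 4.21, 5.35 and 5.64 FPKM in Vector and 4.32, 6.04 and 5.83 FPKM in OE-MMP28. The groups overlapped throughout, with a log2 fold change of 0.10 (SE 0.17). Its longest transcript repeats itself, so that 52.9% of its stretches of 50 bases occur more than once within it, and how the authors' counting treated reads that match several places is not given in the sources used here.

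Of the 9 genes, 7 had enough counts to be tested, and AGR3 and SPDEF did not. Among these 7, the values of TFF2, TFF3 and AGR2 (3 genes) were past the threshold (adjusted p under 0.05, edgeR) and lower in OE-MMP28, and 0 were past it and higher. Of all 15319 genes tested, 11.6% were lower and 11.7% higher by this rule. Vector and OE-MMP28 values were fully separate for 4 genes (TFF1, TFF2, TFF3 and AGR2), against 38.1% of all genes tested. Since the genes were chosen with this contrast known, nothing is read from these counts. In bulk RNA, fewer cells expressing a gene and less RNA per cell cannot be told apart.

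**Figure D2:**
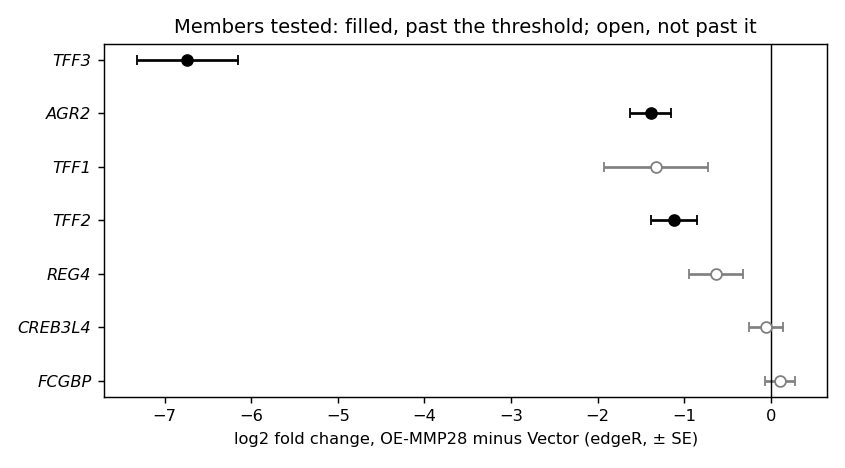
Log2 fold change of OE-MMP28 over Vector with its standard error (horizontal axis, edgeR, 3 libraries per group) for the 7 genes tested, with filled points past the threshold of an adjusted p under 0.05. TFF3 stands at -6.74, AGR2, TFF1 and TFF2 between -1.39 and -1.12, REG4 at -0.63, and CREB3L4 and FCGBP at -0.06 and 0.10.

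Vector replicate 2 stood above the other Vector libraries for most of these genes. On the log2 scale its level exceeded the mean of the other 2 Vector libraries by 1.49 for REG4, 1.47 for TFF1, 1.22 for TFF3, 0.94 for AGR2, 0.92 for TFF2, 0.36 for CREB3L4 and 0.12 for FCGBP, while the median over 14178 genes was -0.03. Between 97.4% and 99.6% of those genes had a smaller excess than TFF1, TFF2, TFF3, AGR2 or REG4, and for CREB3L4 and FCGBP the shares were 83.5% and 65.6%. It was the highest Vector library for 6 of the 7 genes tested, FCGBP being the exception, and for 35.0% of all genes compared.

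This library had the lowest total count of the 6 (13633249), and its share of mitochondrial counts was 14.5%, within the Vector range of 11.9% to 14.8%; OE-MMP28 libraries had 8.80% to 11.9%. The part of depth and of mitochondrial RNA in the excess was not tested. Without Vector replicate 2 the log2 fold change was -6.22 for TFF3, -1.01 for AGR2 and -0.75 for TFF2, all still past the threshold. The 3 trefoil factors, AGR2 and REG4 thus shared their highest library, and REG4 spread from 3.89 to 17.2 FPKM in Vector against 5.65 to 6.72 FPKM in OE-MMP28.

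**Figure D3:**
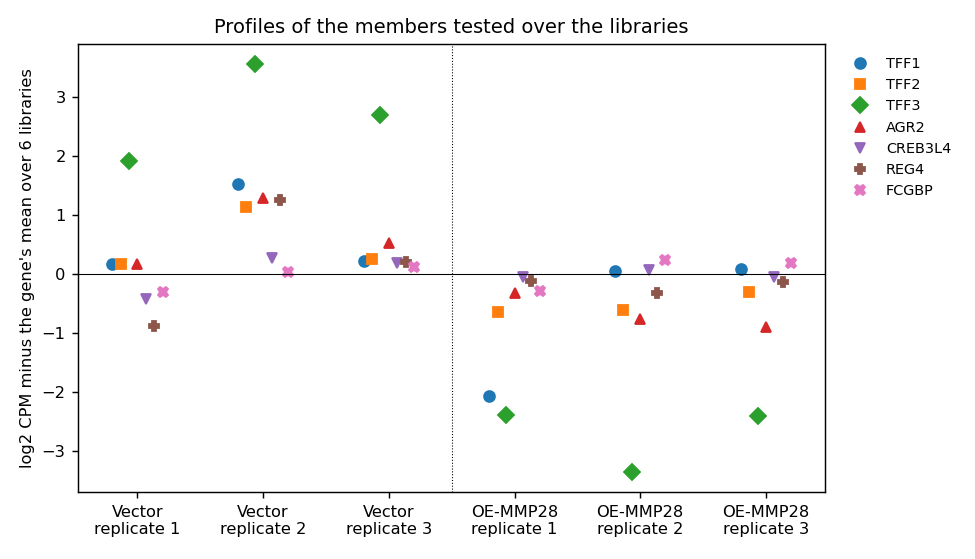
Log2 CPM of the 7 genes tested in each library, minus the mean of that gene over the 6 libraries (vertical axis), with Vector libraries left of the dotted line and OE-MMP28 libraries right of it. TFF1, TFF2, TFF3, AGR2 and REG4 are all highest in Vector replicate 2, and TFF3 is lowest in OE-MMP28 replicate 2, where its count was 0.

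The trefoil factors lie side by side on chromosome 21 in the order TFF3, TFF2 and TFF1 (chr21:42311667-42315651, chr21:42346357-42351128 and chr21:42362282-42366594). Of 18 other genes tested within 1 Mb, 0 were lower and 5 were higher (LINC00479, RIPK4, RSPH1, SLC37A1 and WDR4, log2 fold changes of 0.63 to 1.23), with a median of 0.12. Over all genes tested 11.6% were lower and 11.7% higher. The nearest tested genes were the lipid transporter ABCG1, 14.4 kb to the left with 0.16, and the serine protease TMPRSS3, 5.24 kb to the right with -0.17, and neither passed the threshold.

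Around AGR2 and AGR3, 1 of 10 other genes tested within 1 Mb was lower (AC019117.1, -0.75) and 2 were higher (ISPD, 0.89, and the BMP and Wnt antagonist SOSTDC1, 1.03), with a median of 0.05. The tetraspanin gene TSPAN13, 7.28 kb to the left, had a log2 fold change of 0.49 (adjusted p = 0.0662). AHR, the aryl hydrocarbon receptor 34.4 kb to the right, had -0.02. Over all genes tested the median was 0.01, with 11.6% lower and 11.7% higher.

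**Figure D4:**
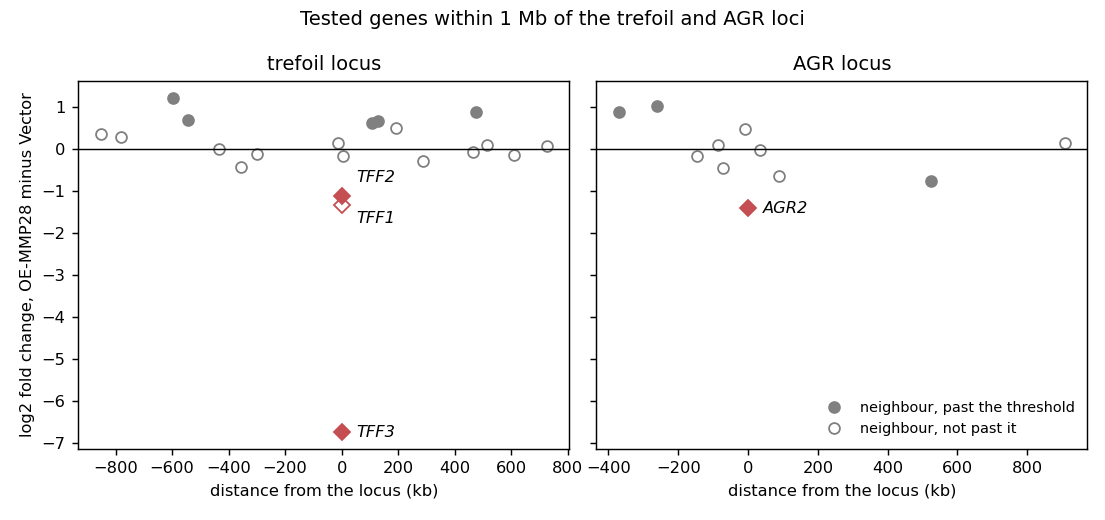
Log2 fold change of OE-MMP28 over Vector (vertical axis) against distance in kb from the trefoil locus (left) or the AGR locus (right) for tested genes within 1 Mb, grey, with the trefoil factors and AGR2 at 0 in red and filled points past the threshold. No neighbour lies below -0.75, whereas TFF3 lies at -6.74 and AGR2 at -1.39.

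Of 19 transcription factors of secretory and foregut epithelium listed, 13 were tested, 2 were lower, 2 were higher and the median log2 fold change was 0.04. Over all genes tested the shares were 11.6% lower and 11.7% higher. FOXA1, a pioneer forkhead factor of ductal and luminal epithelium, had counts of 173, 269 and 226 in Vector and 77, 88 and 56 in OE-MMP28, and it fell by 1.75 on the log2 scale (SE 0.25, adjusted p = 4.39e-05). Its groups were clearly apart, with no OE-MMP28 library above 88.

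BHLHA15 (MIST1), a factor of secretory cells, had 46, 15 and 21 counts in Vector and 1, 9 and 9 in OE-MMP28 and fell by 2.21 (SE 0.56, adjusted p = 0.00664). The filter's minimum count of 10 was reached by BHLHA15 in Vector libraries only. FOXA3, a forkhead factor linked to goblet cells, was low in both groups but rose, with 7, 8 and 4 counts in Vector against 31, 29 and 28 in OE-MMP28 (log2 fold change 2.04, SE 0.44, adjusted p = 0.00227). Its counts reached the filter's minimum of 10 in OE-MMP28 libraries only. KLF4 rose by 0.47 (adjusted p = 0.0378), a call that was lost in 10 of 17 alternative settings, with adjusted p-values from 0.00613 to 0.213. HNF4A, a hepatocyte nuclear factor (0.04), GATA6 (0.07), XBP1 (-0.00), ELF3 (-0.16) and CDX2 (-0.33) did not pass the threshold, and CDX1 was at 0 counts in all libraries.

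Receptors and partners reported for trefoil factors and AGR2 mostly had few reads or none. Of 8 listed, 3 were tested, and GKN1, GKN2 and LINGO2 were at 0 in all libraries. ACKR3, an atypical chemokine receptor, had 34, 84 and 47 counts in Vector and 2, 1 and 5 in OE-MMP28. It fell by 4.47 (SE 0.56, adjusted p = 8.88e-06), with a ratio of Vector to OE-MMP28 of 22.8 (counting interval 11.3 to 53.7). Leaving out 1 library each, its log2 fold change ranged from -5.22 to -3.97, and by limma on log2(FPKM + 1) it was -1.29, all past the threshold. Its counts reached the filter's minimum of 10 in Vector libraries only. CXCR4 had 5, 15 and 5 counts against 2, 1 and 4 and was not tested.

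LYPD3 and DAG1, cell surface proteins described as partners of AGR2, moved the other way. LYPD3 had 6.18 ± 2.52 FPKM in Vector and 14.0 ± 1.65 in OE-MMP28 (log2 fold change 1.19, adjusted p = 0.000749). DAG1, dystroglycan, had 15.7 ± 2.06 and 21.3 ± 2.24 FPKM (0.45, adjusted p = 0.0353), and its call was lost in 9 of 17 alternative settings, with adjusted p-values from 0.0167 to 0.206.

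Among 17 genes of goblet cargo and mucus enzymes, 6 were tested, 3 were lower, 0 were higher and the median log2 fold change was -1.68, against 0.01 over all genes tested. Of all genes tested 11.6% were lower and 11.7% higher. The 3 lower genes had at least 10 counts in Vector libraries only. They passed the filter through that group, so nothing is read from the list median. The gel-forming mucins MUC5B (12, 75 and 32 counts against 0, 4 and 3) and MUC5AC (19, 39 and 12 against 9, 1 and 4) fell by 4.20 (adjusted p = 0.000395) and fell by 2.46 (adjusted p = 0.00606). ERN2, the stress sensor of mucus-producing cells, had 13, 26 and 15 counts in Vector and 4, 3 and 6 in OE-MMP28 and fell by 2.18 (adjusted p = 0.00582). All of these had under 100 counts in every library, and MUC5B, MUC5AC and ERN2 were each highest in Vector replicate 2. Without that library MUC5B fell by 3.27 and MUC5AC fell by 1.80, and without OE-MMP28 replicate 2 and OE-MMP28 replicate 1, respectively, they fell by 4.83 and fell by 3.35, all past the threshold. On log2(FPKM + 1) none of these 3 passed the threshold in limma, with adjusted p-values of up to 0.273.

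The secreted proteins ZG16B (125, 172 and 139 counts against 155, 187 and 173) and SPINK4 (61, 32 and 21 against 35, 60 and 70) did not pass the threshold, with log2 fold changes of 0.09 and 0.40. Both overlapped between the groups.

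Of 17 other disulfide isomerases listed, 14 were tested, 0 were lower and 3 were higher, with a median of 0.14. Over all genes tested 11.6% were lower and 11.7% higher. The membrane-bound TMX1 rose by 1.12 (14.1 ± 3.28 to 30.4 ± 7.05 FPKM, adjusted p = 0.000277; 0.52 and not past the threshold, adjusted p = 0.0635, relative to the median of the genes within 5 Mb) and TMX4 by 0.66 (5.35 ± 0.653 to 8.37 ± 1.19 FPKM, adjusted p = 0.00664). TMX2 rose by 0.48 (adjusted p = 0.0407), a call lost in 11 of 17 alternative settings, with adjusted p-values from 0.00927 to 0.353. P4HB, the founding protein disulfide isomerase, had 73.3 ± 6.48 and 75.7 ± 2.74 FPKM.

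Of the relatives of CREB3L4 and the proteases that release them from the Golgi membrane, 6 were tested. Among them 2 were lower and 2 higher, against 11.6% and 11.7% of all genes tested, with a median of 0.08. CREB3L2 fell by 0.90 (6.07 ± 0.844 to 3.24 ± 0.423 FPKM, adjusted p = 0.000731), and CREB3L3, a factor of liver and intestine, rose by 0.88 (48.7 ± 9.94 to 88.9 ± 16.6 FPKM, adjusted p = 0.00107).

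CREB3L1 had counts of 157, 939 and 346 in Vector and 141, 168 and 176 in OE-MMP28, so that the groups overlapped and Vector replicate 2 was again the highest. It fell by 1.77 (adjusted p = 0.00358), by 0.74 without Vector replicate 2, and its call was lost in 3 of 17 alternative settings, with adjusted p-values of up to 0.112. The site-2 protease MBTPS2 rose by 0.55 (adjusted p = 0.0437), a call lost in 11 of 17 settings, with adjusted p-values from 0.0106 to 0.230. The 4 other members of the REG family had at most 1 count in any library, so REG4 was the only gene of that family with more than 1 count.

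Other markers of the classical type of pancreatic cancer, with the 9 genes left out, gave 4 lower and 3 higher of 13 tested, with a median of 0.15. Over all genes tested the shares were 11.6% and 11.7%. ANXA10 fell by 1.35 (1.83 ± 0.364 to 0.710 ± 0.190 FPKM, adjusted p = 0.00689), CYP3A7 by 1.59, CEACAM6 by 0.73 and LYZ by 0.45. LGALS4 rose by 0.73 (128 ± 7.47 to 211 ± 23.3 FPKM, adjusted p = 0.0012), TSPAN8 by 0.56 and MYO1A by 0.46. The calls of CYP3A7, LYZ and MYO1A were each lost in 3 to 5 of 17 alternative settings, with adjusted p-values of up to 0.152.

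Markers of the basal-like type gave 2 lower and 3 higher of 13 tested, with a median of 0.18. SCEL, a protein of the cornified envelope, had counts of 412, 402 and 480 in Vector and 52, 40 and 58 in OE-MMP28 and fell by 3.25 (adjusted p = 3.54e-09). TNS4, a focal adhesion protein, rose by 2.74, from 11.3 ± 3.32 to 74.8 ± 4.39 FPKM (adjusted p = 6.87e-09). FAM83A fell by 0.98, S100A2 rose by 1.04 and FGFBP1 by 0.77, the last without a call in 4 of 17 alternative settings, with adjusted p-values of up to 0.0860. Each type of marker had genes past the threshold in both directions. So did all genes tested, with 11.6% lower and 11.7% higher, and nothing is read from these counts.

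**Figure D5:**
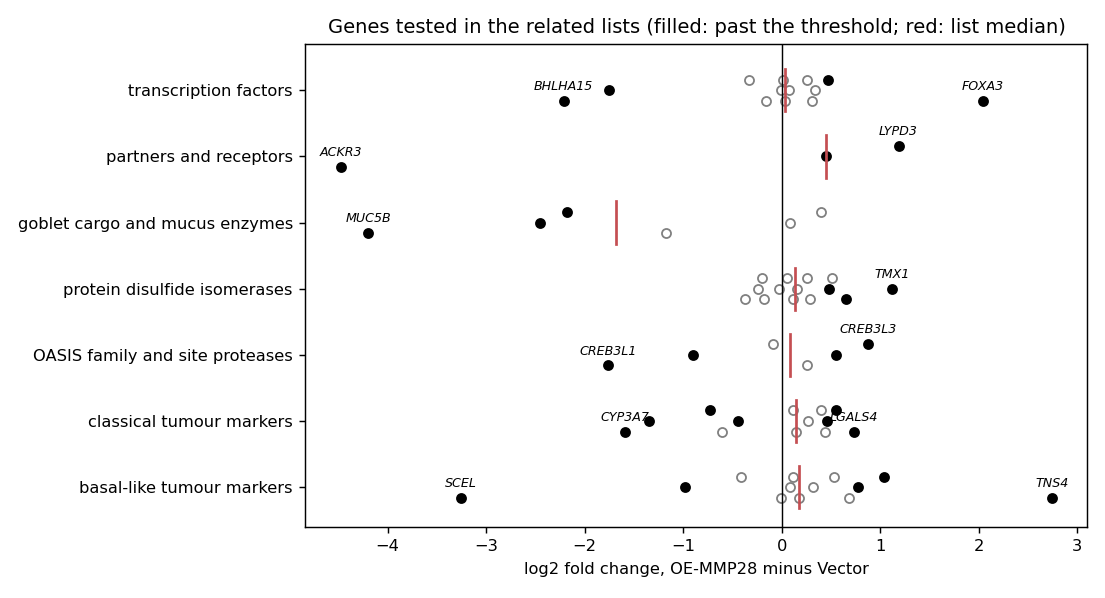
Log2 fold change of OE-MMP28 over Vector (horizontal axis) for the genes tested in 7 lists related to the trefoil and secretory genes, 1 row a list, with filled points past the threshold of an adjusted p under 0.05 and a red line at each list's median. The medians lie between 0.04 and 0.45 except for goblet cargo and mucus enzymes, at -1.68. In that list 6 genes were tested, and the 3 lower ones had at least 10 counts in Vector libraries only.

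Over all related lists, 67 of 112 genes were tested, 14 were lower and 15 higher, with a median of 0.11, and 21 genes were at 0 in all libraries. Of all genes tested 11.6% were lower and 11.7% higher, and the lists were drawn up with earlier results of these data known.

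Of the genes among the 9 with at least 10 counts in every library, AGR2 had the largest log2 fold change. Its profile over the 6 libraries, taken as log2 CPM centred on its own mean, was compared with those of 12257 genes of at least 1 FPKM on average. LIMCH1, SH3YL1, MRPL53, IL15 and AC016394.1 were the most alike, with root-mean-square differences of 0.104, 0.105, 0.127, 0.137 and 0.145 on the log2 scale, against a median of 0.81 over all genes compared. All 5 were highest in Vector replicate 2, at 1.04 to 1.27 above their means, where AGR2 was at 1.30. They were chosen by this profile, so nothing is read from the shared library.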

How the data were processed

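RNA of 3 Vector and 3 OE-MMP28 libraries was sequenced, and the labels gave each library its group and replicate number. The authors deposited whole-number read counts per gene, not normalized or pooled, and FPKM values, which match the deposited counts divided by gene length and library total to within 2.02% of that total. The submitters' processing notes name HISAT2 2.0.5 and featureCounts 1.5.0-p3; the strand setting and the treatment of reads with several matches are not given in the sources used here. All 58735 gene IDs had the coordinates of GENCODE release 29 on GRCh38. Columns of the authors' own comparison (fold changes and p-values) were not used, and 0 per-sample columns were left unmapped.

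Counts were tested with edgeR's quasi-likelihood test (edgeR 4.0.16, R 4.3.3) with TMM scaling and the group as the only term, over 15319 genes kept by filterByExpr (minimum count 10, minimum total 15). Adjusted p-values are Benjamini-Hochberg values over all genes tested, with a threshold of 0.05. The study's methods name limma, which serves here as an alternative (limma 3.58.1, with voom or on log2(FPKM + 1) and log2(FPKM + 0.1)), as does DESeq2 1.42.0. The other alternatives changed the scaling, the filter, the library total or the local reference (the median of genes within 5 Mb), left out each library, or added a replicate block. For centred profiles a prior count of 2 was used. The procedure was run on simulated data with the same spread for every gene and no outlying library. It therefore does not test how the fit handles a library such as Vector replicate 2. Libraries of a group differed by more than counting noise, with a chi-square per degree of freedom of 15.3 to 30.9.

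Members and gene lists were chosen with earlier results of these data known. Named are the 9 genes and MMP28, the genes of each list past the threshold (at most 4 per list and direction), list genes at 0 where a result turns on them, the nearest tested neighbours of both loci, and the 5 genes with the profile most like that of AGR2. Other genes named with values that did not pass the threshold, and neighbours past it, were chosen after their values were seen. RefSeq promoter sequences (GRCh38.p14) were searched on both strands for the letters of a TATA box, a forkhead motif, a GATA motif, the core of a CREB site and a CCAAT box. Counts over a list include every gene listed, some of which are not reported here by name.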

Additional observations from a re-analysis of the deposited data

How the results depend on the processing

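Over 17 alternative settings, 3 of the 9 genes were past the threshold and lower (TFF2, TFF3 and AGR2) and 0 were higher, except that REG4 joined them without Vector replicate 1 and with no filter on low counts (4 lower). Their log2 fold changes ranged from -7.14 to -3.01 for TFF3, -1.61 to -1.01 for AGR2 and -1.29 to -0.75 for TFF2. TFF1 could not be tested at a minimum of 1 CPM in 3 libraries. Leaving out 1 library each, values changed sign for CREB3L4 (-0.24 to 0.070, with 0.022 without Vector replicate 3), REG4 (-1.01 to 0.047) and FCGBP (-0.012 to 0.23), none past the threshold after the change. The median of the neighbours of AGR2 was -0.048 within 5 Mb.

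Leaving out 1 library each, 1044 to 1949 genes were lower and 985 to 1916 higher, and 9 to 14 genes of the related lists were higher. Without OE-MMP28 replicate 2 there were 1044 lower and 985 higher genes, and without Vector replicate 3 there were 1136 higher. Both left 9 genes of the related lists higher. With the local reference 1136 genes were higher, and by limma on log2(FPKM + 1) 9 genes of the related lists were lower. The cause was not tested.

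Leaving out 1 library each, 8 genes of the related lists lost their calls. Without Vector replicate 3 these were CYP3A7 (-1.43), DAG1 (0.40), FGFBP1 (0.62), KLF4 (0.38), LYZ (-0.43), MBTPS2 (0.53), MYO1A (0.49) and TMX2 (0.46). Without OE-MMP28 replicate 2 the same genes except LYZ lost them. Without Vector replicate 2 all except KLF4 and MYO1A did, without OE-MMP28 replicate 1 all except LYZ and MYO1A, without OE-MMP28 replicate 3 KLF4, LYZ and TMX2, and without Vector replicate 1 KLF4 and MYO1A.

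Same-numbered libraries did not deviate together (correlations of their deviations from the group means of 0.02, 0.01 and -0.09), so the numbers were not taken as pairs. With a replicate block 3 of the 9 genes were lower and 0 higher, as were 1841 and 1844 of all genes. With at most 30 counts a library, TFF1 and SPDEF are limited by depth, and AGR3 lies at the limit of detection.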
